A study of Mus musculus with 7 samples.

Results

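Arginine and polyamine metabolism was followed through 10 genes in type 2 innate lymphoid cells (ILC2s) that carried or lacked the transcription factor Gfi1, a zinc finger repressor that acts in lymphoid and myeloid development. The genes were given by name: the arginases Arg1 and Arg2, the inducible nitric oxide synthase Nos2, the citrulline-to-arginine enzymes Ass1 and Asl, the ornithine aminotransferase Oat, the polyamine enzymes Odc1, Srm and Sms, and the arginine transporter Slc7a1. Their accessions matched 16 probes of 39429. Of these, 15 probes of 9 genes were bright enough to test, among 25347 genes tested in all. Only 16690 of the 25347 had a gene symbol. The rest were array entries without one, and they count as genes in every share over all genes given below.

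Arginine stands at a branch point. Arginase splits it into urea and ornithine, nitric oxide synthase turns it into nitric oxide and citrulline, and Ass1 and Asl can rebuild it from citrulline. Ornithine then goes to proline or glutamate through Oat, or to the polyamines putrescine, spermidine and spermine through Odc1, Srm and Sms, and ILC2s are known as lymphocytes that hold much Arg1 protein.

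The study put 7 RNA samples on 2-colour Agilent arrays, 3 from Gfi1 knockout and 4 from wild-type ILC2s. The knockout mice were homozygous for a knock-in allele, Gfi1 GFP/GFP, in which a GFP cassette inactivates Gfi1 and reports its promoter. The wild-type mice were Gfi1+/+. Mice of both genotypes received IL-25 once a day for 4 days, a cytokine that expands ILC2s. On day 5 the cells were sorted from mesenteric lymph nodes as Lin-/Sca-1+/ICOS+/CD127+/c-Kit+, then grown for 6 days in medium with IL-2 and IL-25 at 50 ng/ml each and IL-7 at 10 ng/ml, so all values are of cultured cells. A knockout sample pooled 6 mice and a wild-type sample 3 mice, and genotype and pool size cannot be told apart. The allele was present in every cell of the mouse, and the labels used here give no age, sex or strain.

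On every array the red channel carried the ILC2 sample and the green channel a commercial mixture of mouse RNAs, the same for all samples. Levels are given as the log2 ratio of red over green, which allows 1 gene to be compared across arrays but not 1 gene with another. The sample channel was well above background for 67.4% to 80.9% of probes per array, and no spot was saturated. Log ratios correlated at 0.969 to 0.98 between knockout arrays and at 0.979 to 0.989 between wild-type arrays. The arrays lay on 3 slides, each scanned once: slide 1 held knockout 1 and wild type 4, slide 2 held knockout 2, knockout 3 and wild type 1, and slide 3 held wild type 2 and wild type 3. The Gfi1 probe read 4.25 to 4.29 on the knockout arrays and 1.87 to 2.36 on the wild-type arrays. Where that probe lies relative to the cassette is not given in the sources used here, so it checks no label. All 12 ILC2 markers examined, among them Gata3, Il7r, Icos, Il5 and Il13, were above background on every array. So were all 8 T cell markers and 4 of 5 B cell markers, so signal above background does not tell these cells apart. With 3 arrays against 4, the number of arrays limits the precision of every value, and the smallest exact permutation p is 0.0286.

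Arg1 fell and Ass1 rose in knockout ILC2s, and these were the only 2 of the 9 tested genes to pass the threshold of an adjusted p under 0.05 in limma. Arg1, the cytosolic enzyme that turns arginine into ornithine, was 4.33-fold lower after normexp and loess, and between 1.82-fold and 8.39-fold lower under other treatments of its dim reference signal. Ass1, the synthase that joins citrulline and aspartate in the first step of arginine rebuilding, was 1.34-fold higher. Over all 25347 genes, 7.53% were called, 3.29% as higher and 4.24% as lower in knockout cells, or 833 and 1075 genes. Centring each array on its median in place of loess turned that split to 895 higher and 720 lower. The median difference of the 9 genes was -0.05 on the log2 scale, beside -0.01 over all genes. Arg1 and Ass1 were also the only ones of the 9 whose groups did not overlap, where 18.3% of all genes did not overlap.

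**Figure D1:**
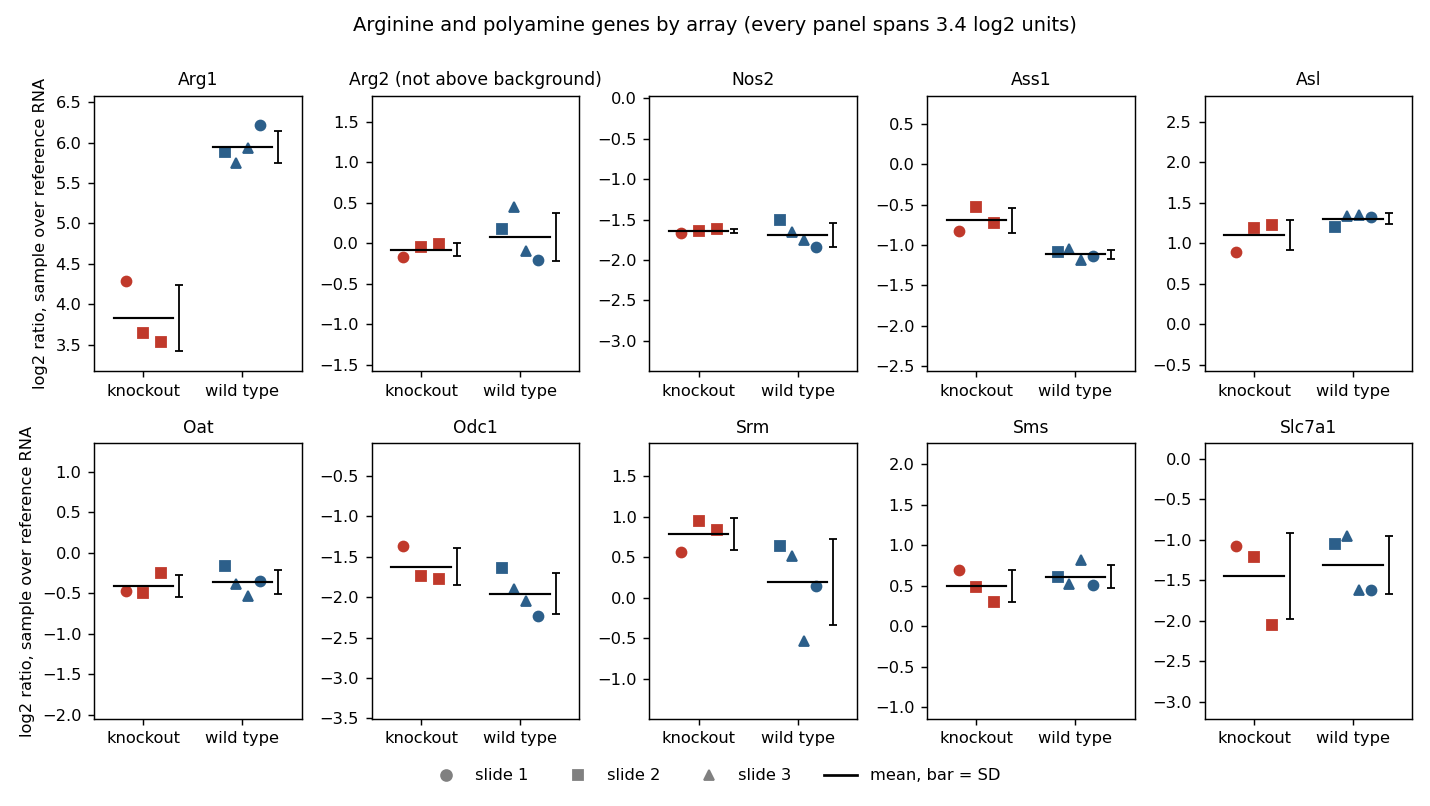
Log2 ratio of sample over reference RNA (vertical axis) for the 10 genes on each of the 3 knockout arrays (left, red) and 4 wild-type arrays (right, blue), with symbols for the slide, lines for means and bars for SD. Every panel spans the same number of log2 units, and the knockout and wild-type points are fully apart only for Arg1 and Ass1.

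Arg1 read 4.29, 3.65 and 3.54 on knockout arrays 1 to 3, against 5.88, 5.75, 5.93 and 6.21 on wild-type arrays 1 to 4. Every knockout array lay below every wild-type array, with knockout 1 the closest to the wild-type values. Arg1 had 1 probe with 1 spot per array, so no second probe stands beside these values. The means were 3.83 ± 0.41 in knockout cells and 5.94 ± 0.20 in wild-type cells (SD, n = 3 and 4). The difference was -2.11 on the log2 scale (SE 0.18, 95% confidence interval -2.52 to -1.71, limma adjusted p = 0.000213). In the exact two-sided permutation test p was 0.0286, the smallest that 35 arrangements allow. Both slides that held both genotypes showed the fall, at -1.92 for slide 1 and -2.29 for slide 2, with no test. In whole-sample RNA, fewer cells holding Arg1 and less Arg1 RNA per cell cannot be told apart.

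The size of the Arg1 difference depended on how the reference channel was treated. In the sample channel, the Arg1 signal minus local background was 3871, 2859 and 2785 intensity units on the knockout arrays, against 23045, 13317, 22537.5 and 37624 on the wild-type arrays. In the reference channel it was 31.5, 32 and 33.5 on the knockout arrays, against 97, 39.5, 88 and 140 on the wild-type arrays, although the same reference RNA was used throughout. The reference signal of Arg1 was thus dim everywhere, and was well above background on 1 of 3 knockout arrays and 4 of 4 wild-type arrays. Taken alone after normalization, the sample channel was lower by 3.07 on the log2 scale in knockout cells, or 8.39-fold (a difference of -3.07, SE 0.22, limma adjusted p = 0.000332). In the reference channel the difference was -0.95 (SE 0.11, limma adjusted p = 0.039). Only 10 genes, or 0.0395% of those tested, were called in the reference channel, against 6.55% in the sample channel. All 10 had the same sign in the sample channel, and 7 were called there too.

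The scanner software's own log ratio of Arg1 was 6.16, 6.18 and 6.22 on the knockout arrays, against 6.91, 7.32, 6.94 and 7.03 on the wild-type arrays. The groups stayed apart, but the difference shrank to -0.86, or 1.82-fold lower (limma adjusted p = 0.00895). The Arg1 fold thus ran from 1.82 to 8.39 between treatments of the same spots. Arg1 was called lower under all 26 alternatives that gave a test, with limma adjusted p-values of at most 0.00895. Not all of these could move the Arg1 difference. Aquantile scaling between arrays, other filters on dim probes and the mean over probes left it at -2.11. The series table repeated the scanner's ratio. Why the reference signal moved with the sample signal was not tested.

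**Figure D2:**
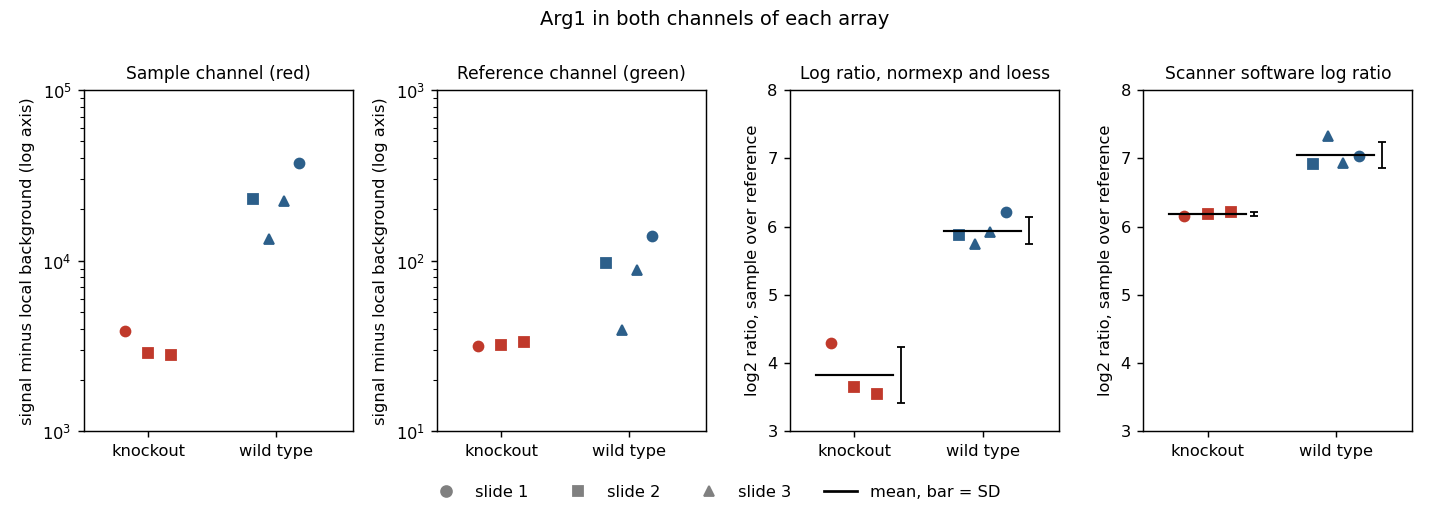
Arg1 on each array, knockout left and wild type right: signal minus local background in the sample and in the reference channel (log axes), then the log2 ratio after normexp and loess and the log2 ratio of the scanner software, with lines for means and bars for SD. The knockout points are below the wild-type points in all 4 panels, and the gap is wider after normexp and loess (-2.11) than in the scanner's ratio (-0.86).

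Macrophages and monocytes are the other cells best known for Arg1 and Nos2. Of 9 of their markers on the array, 5 were above background on every array and none of the 6 tested was called. The summed sample signal of the 9 was 6372.5 to 7467 on the knockout arrays and 3785 to 6442.5 on the wild-type arrays, and these ranges overlap. Such sums are of signals not normalized between arrays, so the brightness of an array enters them. Of 4 tested mast cell and basophil markers, 2 were called lower in knockout cells, where 4.24% of all genes were. These were Cpa3, a carboxypeptidase (a difference of -0.51, limma adjusted p = 0.0402), and Hdc, which makes histamine (a difference of -0.36, limma adjusted p = 0.0189). Mcpt1 and Mcpt4 were not called, at 0.03 and 0.0053. In the sample channel alone Cpa3 and Hdc did not pass the threshold (limma adjusted p = 0.186 and 0.168). The reference signal of Cpa3 was well above background on 1 of 3 knockout and 2 of 4 wild-type arrays. Of the 8 markers of that list, Fcer1a, Ms4a2 and Mcpt2 were above background on no array, and the summed sample signal was 529.5 to 722.5 on the knockout arrays and 399.5 to 1040.5 on the wild-type arrays. Of the 12 ILC2 markers, Il17rb was called higher, and Gata3, Il1rl1, Ly6a and Areg were called lower. Over all genes, 3.29% were called higher and 4.24% lower. The genotypes did not overlap for 7 of the 12 markers, where 18.3% of all genes did not overlap. The summed sample signal of the 12 was 973652 to 1194330 on the knockout arrays and 1033030 to 1647680 on the wild-type arrays, and these ranges overlap. The part of these marker shifts in the Arg1 result was not tested.

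The second arginase, the mitochondrial enzyme Arg2, could not be measured. Its single probe was not well above background in either channel on any of the 7 arrays. The sample signal minus local background was 14.5 to 24 on the knockout arrays and 14.5 to 22 on the wild-type arrays, and no fold is given.

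Nos2, which competes with arginase for arginine and is the macrophage enzyme of nitric oxide production, was detected on all arrays. Its log2 ratio was -1.66, -1.65 and -1.62 on the knockout arrays, against -1.50, -1.66, -1.76 and -1.84 on the wild-type arrays. The knockout values lay inside the wild-type range. The difference was 0.05 (95% confidence interval -0.16 to 0.26, limma adjusted p = 0.849), and its sign turned under 5 of 28 alternatives.

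Ass1 read -0.83, -0.53 and -0.73 on the knockout arrays, against -1.09, -1.05, -1.19 and -1.14 on the wild-type arrays. Every knockout array was above every wild-type array, and the wild-type arrays lay close together. The means were -0.69 ± 0.15 in knockout cells and -1.12 ± 0.06 in wild-type cells (SD, n = 3 and 4), a difference of 0.42 (SE 0.09, 95% confidence interval 0.22 to 0.63, limma adjusted p = 0.0227). The second Ass1 probe read -0.17, 0.17 and 0.14 on the knockout arrays, against -0.46, -0.42, -0.59 and -0.48 on the wild-type arrays. It too kept the groups apart, with a difference of 0.53 (SE 0.10, limma adjusted p = 0.0126 over all probes), in a fit that called 7.47% of probes. In the sample channel alone Ass1 differed by 0.47 (limma adjusted p = 0.00764), and in the reference channel by 0.05 (limma adjusted p = 0.87).

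The call of Ass1 was less stable than its direction. Ass1 was higher in knockout cells under all 28 alternatives, at 0.31 within slide 1 and 0.47 within slide 2, but was called in only 17 of the 26 that gave a test. With the slide as a block the difference was 0.40 (limma adjusted p = 0.203), in a fit that called 1.89% of all genes, and with the scanner's own log ratio it was 0.42 (limma adjusted p = 0.0621). Leaving out knockout 2, wild type 1, wild type 3 or wild type 4 in turn also ended the call, with limma adjusted p-values of 0.0775, 0.0504, 0.0627 and 0.0668.

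**Figure D3:**
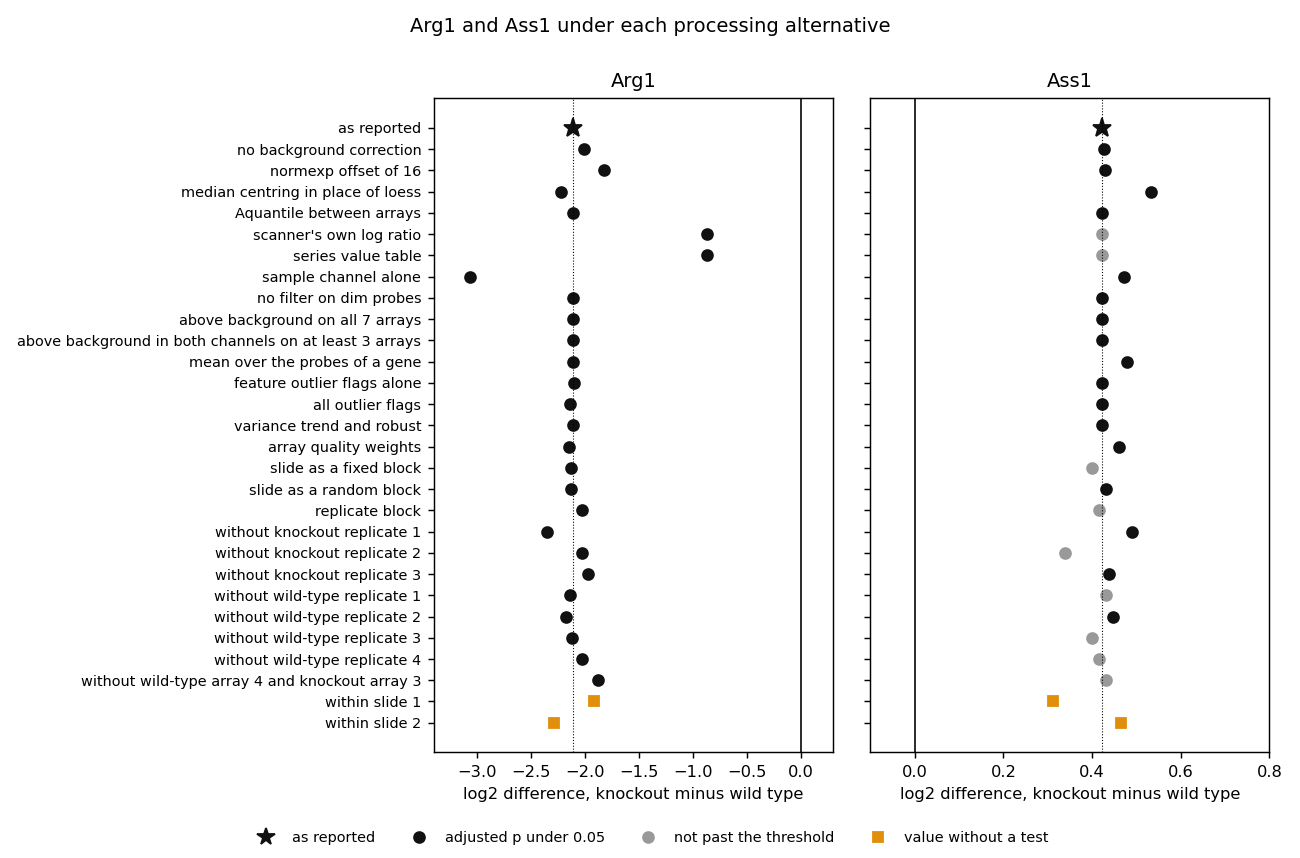
Log2 difference, knockout minus wild type, of Arg1 (left) and Ass1 (right) under each processing alternative, with black points past the threshold, grey points not past it and squares for values without a test. Arg1 ran from -3.07 to -0.86 and was always past the threshold where tested, and Ass1 ran from 0.31 to 0.53 and was past it in 17 of 26 alternatives.

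The promoter of Ass1 is shown because Ass1 was the called gene with an entry in the promoter table of RefSeq (mouse build GRCm38.p6). The stretch directly before its start lies on the forward strand at chr2:31470020-31470269, printed 5′ to 3′ with the match to a searched motif in capitals.
Ass1 promoter: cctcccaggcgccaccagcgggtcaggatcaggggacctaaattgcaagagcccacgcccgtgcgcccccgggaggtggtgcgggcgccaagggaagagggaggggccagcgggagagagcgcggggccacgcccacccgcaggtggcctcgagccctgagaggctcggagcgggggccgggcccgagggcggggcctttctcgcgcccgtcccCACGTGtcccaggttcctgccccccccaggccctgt
The window was searched on both strands for 4 motifs. It held 1 match to CACGTG, the E-box bound by Myc and Max, which 6.0% of 32851 RefSeq windows of the same length held. The letters AATC, the core of the Gfi1 site, were not in this window, where 69.0% of all windows held them. Neither the STAT6 site, TTC and GAA parted by any 4 letters, nor TGATGNAA, an amino acid response element of ATF4 and C/EBP, was in it, and these were in 5.9% and 3.5% of all windows.

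Asl, which splits the product of Ass1 into arginine and fumarate, did not pass the test. It read 0.89, 1.19 and 1.23 on the knockout arrays, against 1.21, 1.34, 1.36 and 1.32 on the wild-type arrays. Knockout 1 was the lowest array and the other knockout arrays were next to the lowest wild-type array. The difference was -0.20 (95% confidence interval -0.43 to 0.02, limma adjusted p = 0.316), which was -0.43 within slide 1 and 0.0037 within slide 2.

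Oat, the mitochondrial enzyme that moves ornithine towards glutamate and proline, overlapped between the genotypes. It read -0.47, -0.50 and -0.25 on the knockout arrays, against -0.16, -0.39, -0.53 and -0.35 on the wild-type arrays. The difference was -0.05 (95% confidence interval -0.29 to 0.19, limma adjusted p = 0.867). These arrays could not tell a difference of that size from 0.

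Slc7a1, the main carrier of arginine and other cationic amino acids in many cells, varied more between arrays of 1 genotype than between genotypes. It read -1.07, -1.21 and -2.06 on the knockout arrays, against -1.05, -0.96, -1.62 and -1.62 on the wild-type arrays. Knockout 3 stood well below the other knockout arrays, and without it the difference of -0.13 (95% confidence interval -0.71 to 0.44, limma adjusted p = 0.848) became 0.17.

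Odc1, the ornithine decarboxylase that makes putrescine and sets the pace of polyamine synthesis, had 3 probes. All had a positive difference, and 1 of them passed the threshold. The brightest probe, which stood for the gene, read -1.37, -1.74 and -1.78 on the knockout arrays, against -1.64, -1.90, -2.05 and -2.24 on the wild-type arrays. These groups overlapped through wild type 1, and the difference was 0.33 (SE 0.15, 95% confidence interval -0.02 to 0.67, limma adjusted p = 0.282). The second probe read 0.40, 0.21 and 0.42 on the knockout arrays, against 0.14, -0.30, -0.26 and -0.31 on the wild-type arrays. These groups did not overlap, and the difference of 0.52 passed the threshold (SE 0.12, limma adjusted p = 0.0333 over all probes). The third probe differed by 0.19 (limma adjusted p = 0.582 over all probes). On the brightest probe slide 1 gave 0.87 and slide 2 gave -0.12, so the slides did not give that probe the same sign. On the second probe the knockout arrays lay above the wild-type array of their slide on both slides. On the third probe they lay above it on slide 1 and below it on slide 2.

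Srm, the spermidine synthase, was not called. It read 0.56, 0.94 and 0.84 on the knockout arrays, against 0.64, 0.52, -0.53 and 0.14 on the wild-type arrays. Wild type 3 was far below the rest on this probe, and at -0.42 also on the second one. The difference was 0.59 (SE 0.25, 95% confidence interval 0.03 to 1.15, limma unadjusted p = 0.0413 and adjusted p = 0.229), with an exact permutation p of 0.143. Of all genes, 19.5% had an unadjusted p under 0.05. Without wild type 3 the difference of the brightest probe was 0.35 (limma adjusted p = 0.302), and with the slide as a block it was 0.32 (limma adjusted p = 0.825). The second Srm probe differed by 0.61 (limma adjusted p = 0.25 over all probes), and over all alternatives Srm ran from 0.25 to 0.74 without a call.

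Sms, the spermine synthase encoded on the X chromosome, overlapped on all 3 probes. The brightest probe read 0.69, 0.49 and 0.30 on the knockout arrays, against 0.60, 0.52, 0.82 and 0.51 on the wild-type arrays. Knockout 1 lay inside the wild-type range and the other knockout arrays below it. Its difference was -0.12 (95% confidence interval -0.38 to 0.14, limma adjusted p = 0.665), and the other probes differed by -0.18 and 0.02.

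**Figure D4:**
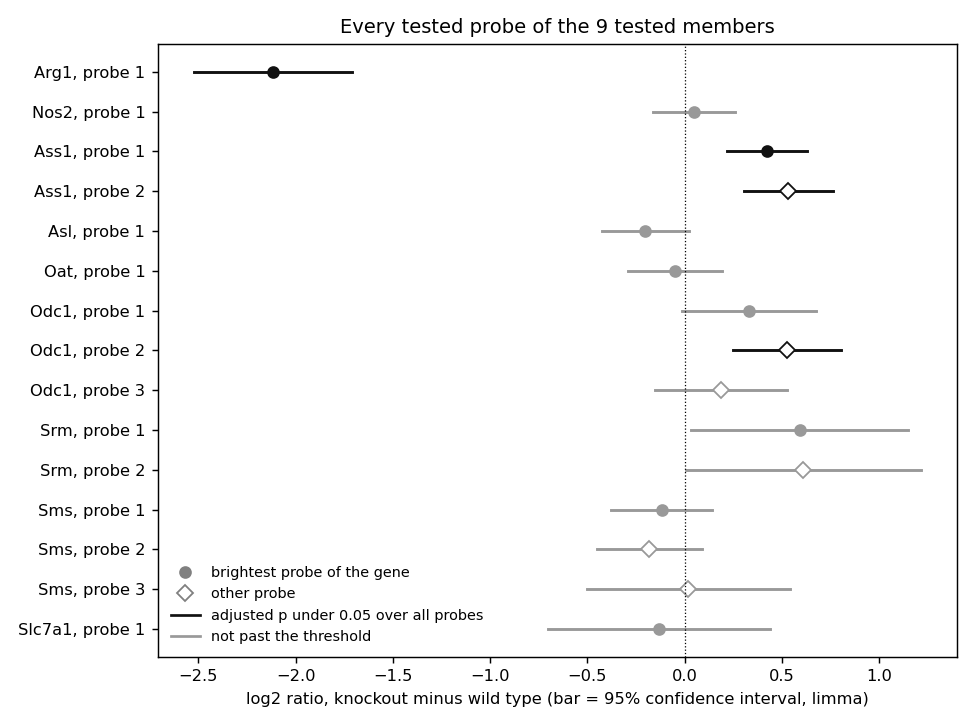
Log2 difference, knockout minus wild type, with its 95% confidence interval (limma) for each of the 15 tested probes of the 9 tested genes, black where the adjusted p over all probes was under 0.05 and grey elsewhere, with filled circles for the brightest probe of a gene and open diamonds for its other probes. Both Ass1 probes are past the threshold, and 1 of the 3 Odc1 probes is.

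The wider pathway was described with a list of 51 other genes of arginine transport, nitric oxide, proline, creatine, polyamine, methionine salvage and hypusine metabolism. Of these, 48 were on the array and 45 were tested. In knockout cells 4 were called higher and 8 lower, where 7.53% of all genes were called, and 16 of the 45 did not overlap between the genotypes, where 18.3% of all genes did not. The median difference was 0.06, beside -0.01 over all genes. With the slide as a block 3 of the 45 were called, Slc7a7, Slc3a2 and Gch1, in a fit that called 1.89% of all genes. These 3 were also the only ones of the 12 called under all 26 alternatives.

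Among 6 tested carriers of arginine and ornithine, 1 was called higher and 2 lower, where 3.29% and 4.24% of all genes were. Slc7a7, the light chain of a carrier that exports cationic amino acids in exchange for neutral ones, rose in knockout cells. It read 0.73, 0.90 and 0.59 on the knockout arrays, against -1.004, -0.66, -1.13 and -1.33 on the wild-type arrays. All knockout arrays were above 0 and all wild-type arrays below it, and the fold was 3.41 (a difference of 1.77, SE 0.15, limma adjusted p = 0.000206). Its partner Slc3a2, the heavy chain shared by this and other amino acid carriers, fell. It read 0.38, 0.30 and 0.24 on the knockout arrays, against 0.96, 0.98, 0.90 and 0.85 on the wild-type arrays. The genotypes were well apart, 1.53-fold lower in knockout cells (a difference of -0.61, SE 0.08, limma adjusted p = 0.0017). Slc7a3, an arginine importer of the same family as Slc7a1, fell by 0.74 (limma adjusted p = 0.0161, and 0.17 with the slide as a block). Slc7a2, another importer of that family, was on the array but too dim to test.

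All 3 calls among the 5 nitric oxide genes of the wider list were lower in knockout cells, where 4.24% of all genes were. The uncalled genes of these 5 differed by 0.15 and -0.02 (limma adjusted p = 0.324 and 0.938). Gch1, which makes the tetrahydrobiopterin cofactor that nitric oxide synthases need, read 0.62, 0.50 and 0.48 on the knockout arrays, against 1.32, 1.45, 1.24 and 1.14 on the wild-type arrays. Every knockout array was below every wild-type array, by 1.69-fold in the means (a difference of -0.76, SE 0.09, limma adjusted p = 0.00151). A second Gch1 probe differed by -0.34 (limma adjusted p = 0.346 over all probes). Nos3, the endothelial nitric oxide synthase, fell by 0.98 (limma adjusted p = 0.0111, and 0.071 with the slide as a block), while its second probe differed by -0.25 (limma adjusted p = 0.266 over all probes). Ddah2, a relative of the enzyme that degrades methylated arginines, fell by 0.46 (limma adjusted p = 0.0319) and was called in 14 of 26 alternatives. Its call was lost when knockout 1, knockout 2, wild type 2, wild type 3 or wild type 4 was left out, with differences of -0.46 to -0.39 and limma adjusted p-values of 0.0658 to 0.111.

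Proline, creatine, agmatine and polyamine synthesis genes are read here beside the 7.53% of all genes that were called. Aldh18a1, which starts proline synthesis from glutamate, differed by -0.18 (limma adjusted p = 0.511), and no probe matched Pycr1. Of 5 creatine and agmatine genes, the creatine carrier Slc6a8 fell by 0.43 (limma adjusted p = 0.0275), a call held in 13 of 26 alternatives. Leaving out any single array but wild type 1 ended it, with differences of -0.47 to -0.36 and limma adjusted p-values of 0.0511 to 0.0787. None of the 7 genes of polyamine control and synthesis was called. Among them the antizyme Oaz1, which marks ornithine decarboxylase for breakdown, differed by 0.06 (limma adjusted p = 0.785), and its inhibitor Azin1 by 0.42 (limma adjusted p = 0.114). Without knockout 2, Azin1 passed the threshold at 0.58 (limma adjusted p = 0.0332). No probe matched Amd1, which supplies the aminopropyl donor of Srm and Sms.

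Polyamine breakdown and transport held 2 calls among 7 genes, both lower, where 4.24% of all genes were called lower. Atp13a3, a P-type transporter that takes up polyamines, read 0.32, 0.18 and 0.03 on the knockout arrays, against 1.203, 0.80, 1.08 and 0.75 on the wild-type arrays. The genotypes did not overlap, and Atp13a3 was 1.72-fold lower (a difference of -0.78, SE 0.13, limma adjusted p = 0.00601, and 0.0835 with the slide as a block). Slc18b1, a vesicular polyamine carrier, fell by 0.39 (limma adjusted p = 0.0499), a call held in 8 of 26 alternatives. Leaving out any single array but wild type 4 ended it, with differences of -0.42 to -0.35 and limma adjusted p-values of 0.0894 to 0.129. The acetyltransferase Sat1, which starts polyamine breakdown, differed by 0.07 (limma adjusted p = 0.883), and the spermine oxidase Smox by -0.37 (limma adjusted p = 0.112).

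Methionine salvage recycles the methylthioadenosine that Srm and Sms release. It held 2 calls among 5 genes, both higher, where 3.29% of all genes were called higher. Mtap, the phosphorylase of its first step, rose by 0.65 (limma adjusted p = 0.00999, and 0.0824 with the slide as a block). Enoph1, a later enzyme of the route, rose by 0.49 (limma adjusted p = 0.036), a call held in 14 of 26 alternatives. It was lost when knockout 1, knockout 3, wild type 2, wild type 3 or wild type 4 was left out, with differences of 0.40 to 0.51 and limma adjusted p-values of 0.0708 to 0.101. None of 4 hypusine genes was called. Dhps, which transfers part of spermidine to a translation factor, differed by -0.06 (limma adjusted p = 0.724), and that factor, Eif5a, by 0.35 (limma adjusted p = 0.229).

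**Figure D5:**
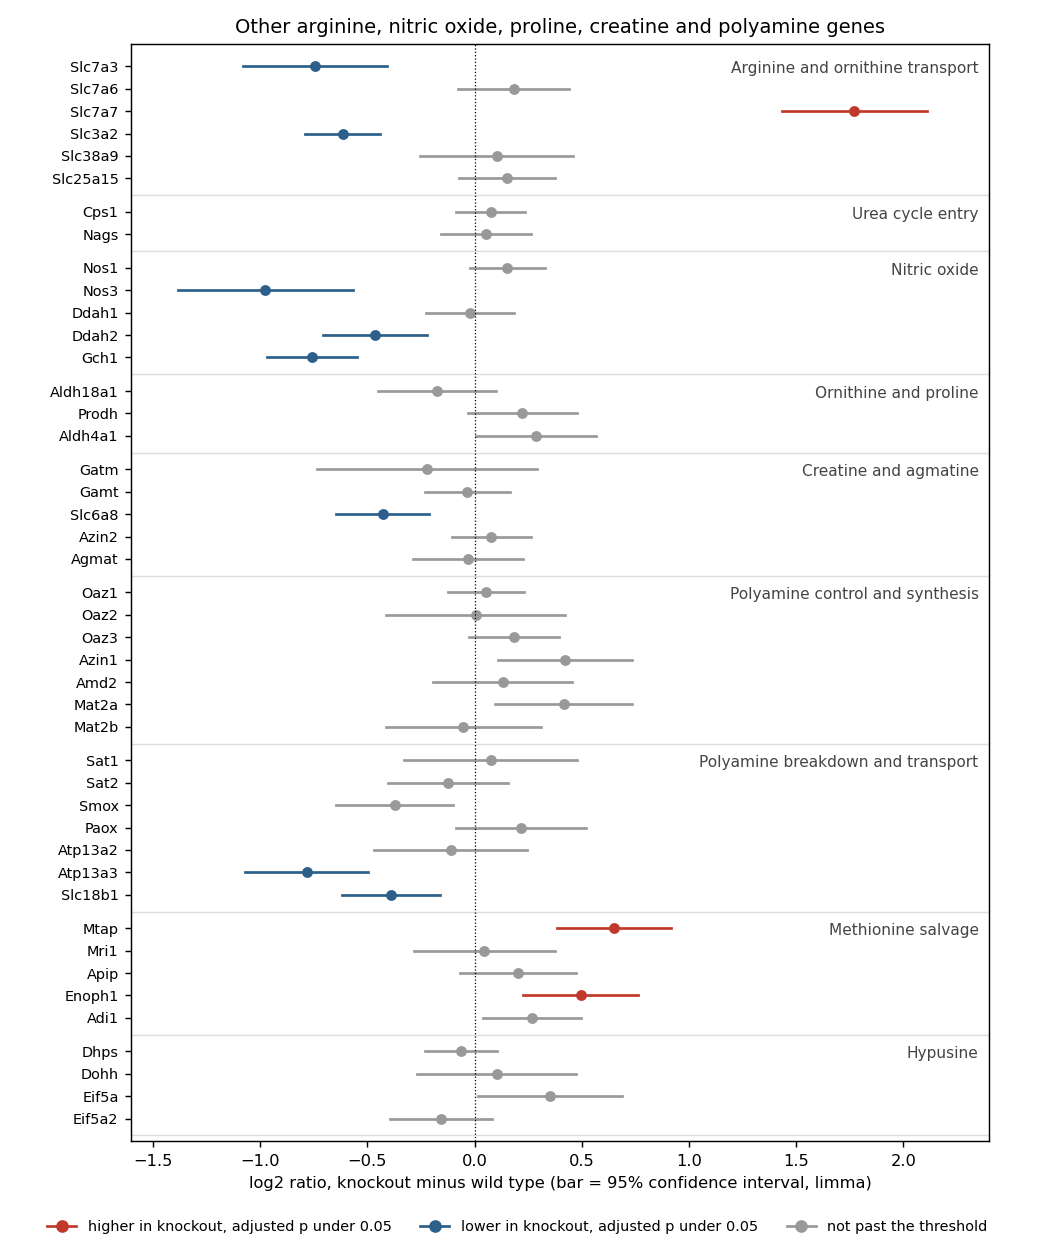
Log2 difference, knockout minus wild type, with its 95% confidence interval (limma) for the tested genes of the wider list reported here, grouped by role, red where called higher and blue where called lower in knockout cells. Slc7a7 stands out to the right at 1.77, and the nitric oxide and polyamine transport calls lie to the left.

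The genes whose log ratios, centred over the 7 arrays, lay closest to those of each called gene were found among 16639 genes with a symbol, by root mean square distance in log2 units. For Arg1 these were the phosphatase gene Dusp6 at 0.193, the IL-33 receptor gene Il1rl1 at 0.202 and the fatty acid desaturase gene Scd2 at 0.259. Their own knockout minus wild-type differences were -1.98, -1.89 and -1.96. For Ass1 the closest were Tmem131l at 0.0532, Adam19 at 0.0541 and Raet1e at 0.0548, with differences of 0.44, 0.49 and 0.39. Closeness was the rule of choice, so differences near that of the called gene follow from it. The distances are a description over 7 arrays, with no test. Those of Arg1 hold for the normexp and loess log ratios, in which its reference signal was not well above background on 2 of 3 knockout arrays. In the sample channel alone Dusp6, Il1rl1 and Scd2 differed by -1.75, -1.40 and -1.64, and Arg1 by -3.07.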

How the data were processed

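Samples were grouped by their labels into 3 knockout and 4 wild-type ILC2 pools, 1 array each. The deposited scanner files give linear intensity values per spot, written by Agilent Feature Extraction 11.0.1.1 per the file headers, where the submitters' processing notes name 10.7.3.1. A second column is the log10 of red over green, background-subtracted and dye-normalized per the file headers. The deposited series table holds log2 ratios that matched that log10 ratio, turned to log2, to within 0.001; its column medians ran from 0.163 to 0.254, and no further centring was found.

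Median signals were used because the files used here hold no mean signals. Control spots, feature outliers and spots of non-uniform background were left out. Spots were corrected with normexp (offset 50), normalized by loess, averaged per probe and tested with lmFit and eBayes in limma 3.58.1 under R 4.3.3, with Benjamini-Hochberg adjustment over all 25347 genes and a threshold of 0.05. Figures used matplotlib 3.10.9. The fit took the 30293 probes with red well above background on 3 arrays or more and 2 or more values per group, and the brightest probe stood for a gene. Probes were named by accession through RefSeq (GRCm38.p6): 26581 of 39429 had 1 gene and 12848 none. Probes without a gene were kept under the name the array gave them. The offset draws dim ratios towards 0. For Arg1, whose reference signal was dimmer on the knockout arrays, it did not shrink the difference between the genotypes. That difference was -1.82 with an offset of 16 and -2.11 with the offset of 50. For single channels, arrays were further scaled by Aquantile.

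The genes, the wider list and the marker lists were chosen with earlier results of these data known. The text names all 10 genes, every called gene of the wider list but 1, which is counted but not reported here, 12 genes of that list fixed by name, and the 3 genes closest to each called gene. The limma test was also run on simulated data, with means and spreads taken from these log ratios. The alternatives changed background correction, normalization, channel, filter, probe choice, flags, variance model, slide and replicate blocks and left out arrays. Of the remaining marker lists, no T cell (8 tested), B cell (5), granulocyte (4) or NK (2) marker was called. Per the labels, mice were pooled sample by sample.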

Additional observations from a re-analysis of the deposited data

How the results depend on the processing

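The 2 calls among the 9 genes became 1, Arg1 lower, with the scanner's own log ratio, with the series table, with the slide as a fixed block, in the replicate block fit and without both wild type 4 and knockout 3, and were 1 to 2 when each array was left out. The 12 calls of the wider list became 3 with the slide block, 7 with the replicate block and 6 without both arrays, and 8 to 11 when each array was left out. Over all genes, 1908 calls became 478 with the slide block, 1070 with the replicate block and 1104 without both arrays, and ran from 1253 to 1888 when each array was left out, lowest without knockout 2 and 1266 without wild type 4. The labels name no pairing of samples by replicate number. Same-numbered arrays deviated together with correlations of -0.031, 0.239 and 0.092 for numbers 1, 2 and 3. For knockout 2 and knockout 3, but not knockout 1, the same-numbered wild-type array was the best match. So few values cannot settle whether samples were paired. The replicate block fit leaves out wild type 4. In that fit Ass1 was at 0.41 (limma adjusted p = 0.084). Differences of uncalled genes turned sign as follows. Nos2 was at -0.034 with feature flags alone, -0.0016 in the replicate block fit, -0.0131 without both arrays and -0.13 within slide 2, and from -0.0016 (without wild type 4) to 0.11 when each array was left out. Asl was at 0.0037 within slide 2, Oat at 0.0351 with median centring and -0.13 (without knockout 3) to 0.0156 (without wild type 1) when each array was left out, Odc1 at -0.12 within slide 2 and Sms at 0.19 within slide 1. Slc7a1 was at 0.0689 without both arrays, 0.55 within slide 1 and -0.32 (without knockout 1) to 0.17 (without knockout 3) when each array was left out. Arg1, Ass1 and Srm kept their sign under all 28 alternatives. Fewer samples or degrees of freedom enter the block and left-out fits, and otherwise the cause was not tested. Signal over background limits Arg2, and the reference channel of Arg1.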
